A study of Homo sapiens with 12 samples.

Results

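The kinetochore is the protein structure built on the centromere of each chromosome to which spindle microtubules attach, and the spindle checkpoint is the signal that holds a cell in mitosis until every kinetochore is attached. The 40 genes described here encode subunits of that structure and of its checkpoint. They were taken by symbol from a list of names among the 58735 genes of the deposited expression table, and all 40 symbols were found. Of these, 39 reached a mean of 1 FPKM (fragments scaled to gene length and by a factor for each library) over the 12 libraries. They were tested with 13609 genes in all. The one below was CENPP, whose library values ran from 0.324 to 0.571 FPKM.

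The cells were TFK1, an established human cholangiocarcinoma (bile duct cancer) line. Untreated control cells were compared with cells given 6 Gy of radiation, cells given nab-paclitaxel at 1.62 ng/ml, and cells given both, here called the combination, with RNA taken at 24 h and 3 labelled biological replicates in each of the 4 groups. The labels pose the question of how the drug makes such cells more sensitive to radiation. All groups come from 1 line, so p-values measure the spread between these replicates of the line and not between tumours.

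Kinetochores are assembled in layers. Nucleosomes with the histone variant CENP-A mark the centromere, the constitutive centromere-associated network forms the inner layer, and the KNL1, MIS12 and NDC80 complexes form the outer layer that binds microtubules, helped by the SKA complex and by motors of the fibrous corona. Unattached kinetochores recruit TTK, BUB1, BUBR1 (the product of BUB1B), BUB3, MAD1 and MAD2, which hold back the anaphase-promoting complex. Paclitaxel stabilises microtubules and can keep this checkpoint active, while ionising radiation can stop cells before they enter mitosis. Many of the mRNAs are made mainly in late cell cycle, and their promoters often carry a cell cycle homology region (CHR) and CCAAT boxes, which are read by the DREAM and MYB-MuvB complexes and by NF-Y.

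Promoters of 5 members are shown because these genes had the smallest p over the 4 groups in their layer. Each covers 250 bases before and 50 after a RefSeq start on GRCh38.p14, is written 5′ to 3′ on the gene's strand, and has in capitals every match to a CHR, a CCAAT box or an E2F motif on either strand. A CHR was searched as TTTGAA, and a second accepted form of the same element was TTTAAA. The CCAAT box was searched by the letters of its name, and the site of E2F factors as TTCCCGC. They lie at chr15:40160819-40161118 on the plus strand (BUB1B), chr1:214602945-214603244 on the plus strand (CENPF), chr2:168890381-168890680 on the minus strand (SPC25), chr2:233854486-233854785 on the minus strand (HJURP) and chr18:50374796-50375095 on the plus strand (SKA1).
BUB1B: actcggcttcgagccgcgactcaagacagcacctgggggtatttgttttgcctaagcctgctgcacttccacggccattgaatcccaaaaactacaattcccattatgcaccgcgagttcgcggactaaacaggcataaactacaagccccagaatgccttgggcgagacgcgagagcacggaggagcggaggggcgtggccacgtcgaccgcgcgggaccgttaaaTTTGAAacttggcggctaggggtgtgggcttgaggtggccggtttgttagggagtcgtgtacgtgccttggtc
CENPF: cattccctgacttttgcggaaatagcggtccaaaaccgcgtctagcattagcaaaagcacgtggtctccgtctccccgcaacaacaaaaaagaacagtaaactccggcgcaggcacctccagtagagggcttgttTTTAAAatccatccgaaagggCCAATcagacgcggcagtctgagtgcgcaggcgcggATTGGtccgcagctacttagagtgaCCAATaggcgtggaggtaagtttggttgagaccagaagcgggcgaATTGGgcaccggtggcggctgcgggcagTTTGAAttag
SPC25: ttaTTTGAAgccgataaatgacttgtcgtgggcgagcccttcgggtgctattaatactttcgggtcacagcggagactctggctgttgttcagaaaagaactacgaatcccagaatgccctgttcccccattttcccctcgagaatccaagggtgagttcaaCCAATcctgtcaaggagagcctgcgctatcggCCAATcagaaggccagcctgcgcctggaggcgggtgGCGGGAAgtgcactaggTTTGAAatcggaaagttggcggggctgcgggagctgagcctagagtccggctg
HJURP: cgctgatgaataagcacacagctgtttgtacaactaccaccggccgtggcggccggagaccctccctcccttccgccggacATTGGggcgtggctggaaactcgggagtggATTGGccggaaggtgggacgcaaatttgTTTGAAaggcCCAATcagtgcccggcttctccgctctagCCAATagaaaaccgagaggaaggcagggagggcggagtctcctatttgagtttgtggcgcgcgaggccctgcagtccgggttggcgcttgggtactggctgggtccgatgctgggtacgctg
SKA1: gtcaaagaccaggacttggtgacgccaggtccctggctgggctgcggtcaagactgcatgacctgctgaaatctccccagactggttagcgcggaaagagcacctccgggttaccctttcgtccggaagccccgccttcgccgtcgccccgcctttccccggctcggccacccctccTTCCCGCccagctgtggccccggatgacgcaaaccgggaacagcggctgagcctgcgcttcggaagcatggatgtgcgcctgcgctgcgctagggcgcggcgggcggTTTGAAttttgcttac

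Counted from the start, with the base before it as -1, the CHR of BUB1B began at -23. SPC25 had CHR matches at -247 and -3, CCAAT boxes at -88 and -56 and an E2F match at -20. HJURP had a CHR at -111, between CCAAT boxes at -139 and -101. No matches overlapped each other in these windows. RefSeq windows were found for 34 of the 40 members (39 windows), and CENPH, CENPL, CENPM, KNL1, BUB3 and TTK had none. A CHR was found in 48.7% of the members' windows, a CCAAT box in 61.5% and an E2F motif in 20.5%. Over all 35116 windows of the same length these shares were 24.0%, 34.6% and 6.6%, and over the 13336 windows of tested genes 16.1%, 35.0% and 9.8%. Of the 13 windows of 12 members that fell with radiation, 10 held a CHR (76.9%) and 10 a CCAAT box (76.9%). Of the 23 windows of 21 tested members that did not pass, 9 (39.1%) and 13 (56.5%) did. The windows of ZWINT, which fell, overlap each other and each hold both motifs. These sets are small, and the difference between them was not tested. A match is a run of letters and was not tested as a binding site.

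The libraries held 14840283 to 17992242 fragments, and single tested members had 36 to 4308 fragments in a library. The line's own biliary markers were present (6 of 8 at 1 FPKM or more, led by KRT19 at 419 FPKM, with KRT7 at 0.533), and their summed level ran from 719 to 905 FPKM in control, 1104 to 1181 with radiation, 1183 to 1332 with the drug and 1345 to 1702 with both. Few markers of other cells reached 1 FPKM: 1 of 10 for macrophages (ITGAX, 1.90), 2 of 9 for fibroblasts (COL1A1 at 5.70 the highest) and 0 of 10 for lymphocytes and endothelium. Control 2, nab-paclitaxel 1 and combination 2 stood apart on the second principal component, each the highest of its group (30.6, 28.6 and 3.64). The members were high in the same libraries: 30 of 39 lay above their group mean in control 2, 32 in nab-paclitaxel 1 and 28 in combination 2, with median deviations of 0.20, 0.17 and 0.10 on the log2 scale. Over all tested genes the median deviations in these libraries were -0.007, 0.013 and -0.001. The count of members called in each comparison is also given without these 3 libraries, an alternative chosen after seeing the data.

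**Figure D1:**
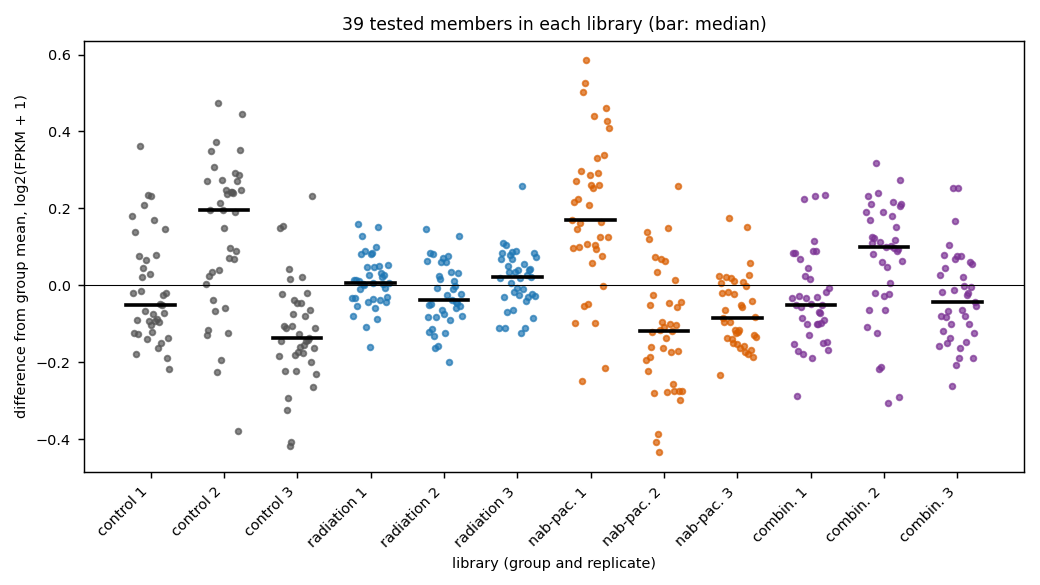
Difference of each of the 39 tested members from its group mean, in log2(FPKM + 1), in each of the 12 libraries (points: members, bars: medians). Control 2, nab-paclitaxel 1 and combination 2 have medians of 0.20, 0.17 and 0.10, and the 3 radiation libraries lie between -0.04 and 0.02.

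In untreated cells the members spanned a wide range of levels. CENPB, which binds a DNA motif in centromeric satellite repeats, was the highest at 28.7 ± 2.93 FPKM (SD, n = 3), followed by the checkpoint adaptor BUB3 at 20.7 ± 3.79, SKA2 at 16 ± 2.59, MIS12 at 14.6 ± 2.72, ZW10 at 10.2 ± 2.05 and CENPF at 10.2 ± 0.483. The order of CENPB and BUB3 held in every control library, while the libraries of SKA2 (14.2 to 19) and MIS12 (12.7 to 17.7) overlapped, as did those of ZW10 (8.98 to 12.6) and CENPF (9.78 to 10.7). The lowest tested members in control were SGO1 at 1.65 ± 0.412 and CENPL at 1.83 ± 0.191 FPKM. The summed level of the 40 genes was 249 ± 26.5 FPKM in control, 179 ± 2.61 with radiation, 275 ± 41.7 with nab-paclitaxel and 197 ± 7.93 with the combination. Control libraries (226 to 278) did not overlap those of radiation (177 to 182) or the combination (192 to 206), and did overlap those of nab-paclitaxel (251 to 324). These sums were not rescaled to the FPKM total of each library, which ran from 324022 (nab-paclitaxel 2) to 388625 (nab-paclitaxel 1).

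The first comparison set irradiated cells against untreated ones. Kinetochore and checkpoint mRNAs were lower after radiation: 14 of 39 fell and 0 rose, against 3.45% of all tested genes that fell and 2.48% that rose. The falls lay in the outer kinetochore (5 of 10), the checkpoint (3 of 6), the centromere group (2 of 4), the inner kinetochore (2 of 11), the SKA complex (1 of 3) and the corona (1 of 3), with 0 of 2 shugoshins. Mean levels after radiation were 0.452 to 1.05 times those of control, with a median of 0.639 over the 39. The median log2 fold change was -0.50, beside -0.02 over all tested genes, and 38 of 39 values were below 0. The words rose and fell stand for a Benjamini-Hochberg adjusted p under 0.05 from limma. Fold changes are on log2(FPKM + 1) with their SE, a scale that understates the change of low genes.

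In the centromere group, HJURP, the chaperone that loads CENP-A, had 6.31, 5.13 and 5.54 FPKM in control replicates 1, 2 and 3 and 3.62, 3.56 and 4.01 after radiation. CENPA, the centromeric histone, had 4.37, 3.74 and 3.17 in control and 2.12, 2.54 and 1.96 after radiation. Both sets of irradiated libraries lay wholly below control, and both genes fell (HJURP -0.49 ± 0.09, adjusted p = 0.00952; CENPA -0.57 ± 0.13, adjusted p = 0.0289). CENPB had 28.2, 26 and 31.8 in control and 26.4, 29.3 and 28.3 after radiation. Its libraries overlapped, with a log2 fold change of -0.03 ± 0.11 (adjusted p = 0.932). CENPC, which ties centromeric nucleosomes to the outer layer, also overlapped, with 2.05, 3.01 and 2.0 and 2.02, 1.82 and 2.14 FPKM (-0.15 ± 0.15).

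Of the inner kinetochore, CENPM and CENPW fell. CENPM, a partner of CENPH, CENPI and CENPK, had 3.85, 2.67 and 2.01 FPKM in control and 1.27, 1.42 and 1.17 after radiation (-0.72 ± 0.16, adjusted p = 0.0200). CENPW, which pairs with CENPT through histone folds, had 8.37, 8.19 and 7.32 and 3.50, 3.94 and 4.16 (-0.88 ± 0.21, adjusted p = 0.0322). CENPN, which contacts the CENP-A nucleosome, had 5.40, 7.01 and 4.28 and 3.59, 2.96 and 3.50, without overlap but short of the threshold (adjusted p = 0.0638). CENPH had 2.49, 3.02 and 3.39 and 2.67, 2.34 and 2.92, which overlapped. The other 7 tested inner members did not pass: CENPQ had -0.88 ± 0.24 (adjusted p = 0.0542) with a control SD of 1.92 FPKM, and CENPU, CENPK, CENPO, CENPI, CENPL and CENPT ran from -0.50 to -0.06.

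The outer kinetochore had 5 falls among 10 members. SPC25 had 3.31, 3.82 and 3.67 FPKM in control and 1.67, 1.43 and 2.33 after radiation (-0.72 ± 0.11, adjusted p = 0.00504). NDC80, which with NUF2 forms the microtubule-binding end of its complex, had 4.62, 6.26 and 4.59 and 2.57, 2.81 and 2.60 (-0.74 ± 0.14, adjusted p = 0.00904). SPC24, the partner of SPC25 at the kinetochore end, had 3.41, 2.59 and 2.80 and 1.48, 1.54 and 1.21 (-0.70 ± 0.14, adjusted p = 0.0146). In all 3 the irradiated libraries lay below every control library. ZWINT, which binds KNL1, had 8.24, 5.86 and 6.65 and 4.49, 4.89 and 4.59 (-0.47 ± 0.12, adjusted p = 0.0391). KNL1 itself, the scaffold on which BUB1 and BUBR1 dock, went from 2.41 ± 0.458 to 1.34 ± 0.0917 FPKM (-0.54 ± 0.12, adjusted p = 0.0195). The libraries of the other 5 did not overlap either, but these did not pass: NUF2 -0.58, DSN1 -0.55, MIS12 -0.41, PMF1 -0.38 and NSL1 -0.23.

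SKA1, of the complex that helps NDC80 follow microtubule ends, had 5.94, 6.03 and 4.82 FPKM in control and 3.88, 3.28 and 3.52 after radiation (-0.53 ± 0.09, adjusted p = 0.00743). SKA3 had 4.37, 6.11 and 4.69 and 3.72, 3.14 and 2.93, and SKA2 had 14.9, 19 and 14.2 and 12.5, 13.7 and 13.9. Neither passed (-0.50 ± 0.15, adjusted p = 0.0729, and -0.23 ± 0.14, adjusted p = 0.416). In the corona, CENPF, a large coiled-coil protein that rises in G2, had 9.78, 10.7 and 9.99 and 5.39, 5.62 and 5.69 (-0.76 ± 0.11, adjusted p = 0.00279). CENPE, a kinesin that brings chromosomes to the spindle equator, had 2.86, 3.86 and 2.72 and 2.22, 2.08 and 2.02, which did not overlap (-0.41 ± 0.15, adjusted p = 0.152). ZW10, a subunit of the complex that brings dynein to kinetochores, had 8.98, 12.6 and 9.02 and 10.2, 9.92 and 9.70 (-0.02 ± 0.13), with radiation inside the control range.

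Of the checkpoint genes, BUB1B had 5.83, 6.40 and 5.65 FPKM in control and 3.17, 3.04 and 3.28 after radiation (-0.74 ± 0.08, adjusted p = 8.83e-04), the smallest adjusted p of the 39. BUB1, the kinase that marks centromeric histone H2A, had 6.36, 7.70 and 5.93 and 4.28, 3.99 and 4.34 (-0.55 ± 0.10, adjusted p = 0.00903). MAD2L1, which encodes MAD2, had 7.16, 9.10 and 5.89 and 3.62, 4.20 and 3.49 (-0.80 ± 0.19, adjusted p = 0.0335). In these 3 every irradiated library lay below every control library. TTK, the kinase at the top of the checkpoint, had 5.91, 9.05 and 6.04 and 3.75, 3.68 and 4.14 (-0.70 ± 0.20, adjusted p = 0.0606). BUB3 had 19.5, 25 and 17.7 and 18.3, 17.3 and 18.2 (-0.18 ± 0.15), and MAD1L1, which encodes MAD1, went from 2.58 ± 0.764 to 2.71 ± 0.0737 FPKM (0.07 ± 0.18), the one value above 0. The shugoshins protect centromeric cohesin until anaphase. SGO1 had 1.39, 2.13 and 1.43 and 1.12, 1.01 and 1.0, and SGO2 had 3.35, 5.88 and 3.31 and 2.53, 2.32 and 2.70, without overlap and short of the threshold (-0.37 ± 0.13 and -0.52 ± 0.20).

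The groups did not overlap in 30 of 39 members, against 28.4% of all tested genes. Of the 6 members at 10 FPKM or more in control 1 fell (CENPF), and of the 33 below it 13 did. At an unadjusted p under 0.05, 27 members were lower and 0 higher, and voom on recovered fragment numbers called 16 lower and 0 higher. Without the 3 deviating libraries more genes were called in general: 1725 of all 13609 tested genes fell and 1222 rose. Of the members 22 fell there, with a median log2 fold change of -0.41 beside -0.50 in the main fit. Among those added were TTK (-0.52, adjusted p = 0.00254), NUF2 (-0.46, adjusted p = 0.0125) and CENPQ (-0.69, adjusted p = 0.0124). The count was 8 without control 1 and 7, 6 and 7 without radiation 1, 2 and 3, and NDC80, SPC25, SKA1, CENPF and BUB1B were called in each of the alternatives that tested them (20 for CENPF and BUB1B and 19 for the other 3, which lie below the 5 FPKM filter). Over all tested genes 337 rose and 470 fell, and voom gave 485 and 374.

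**Figure D2:**
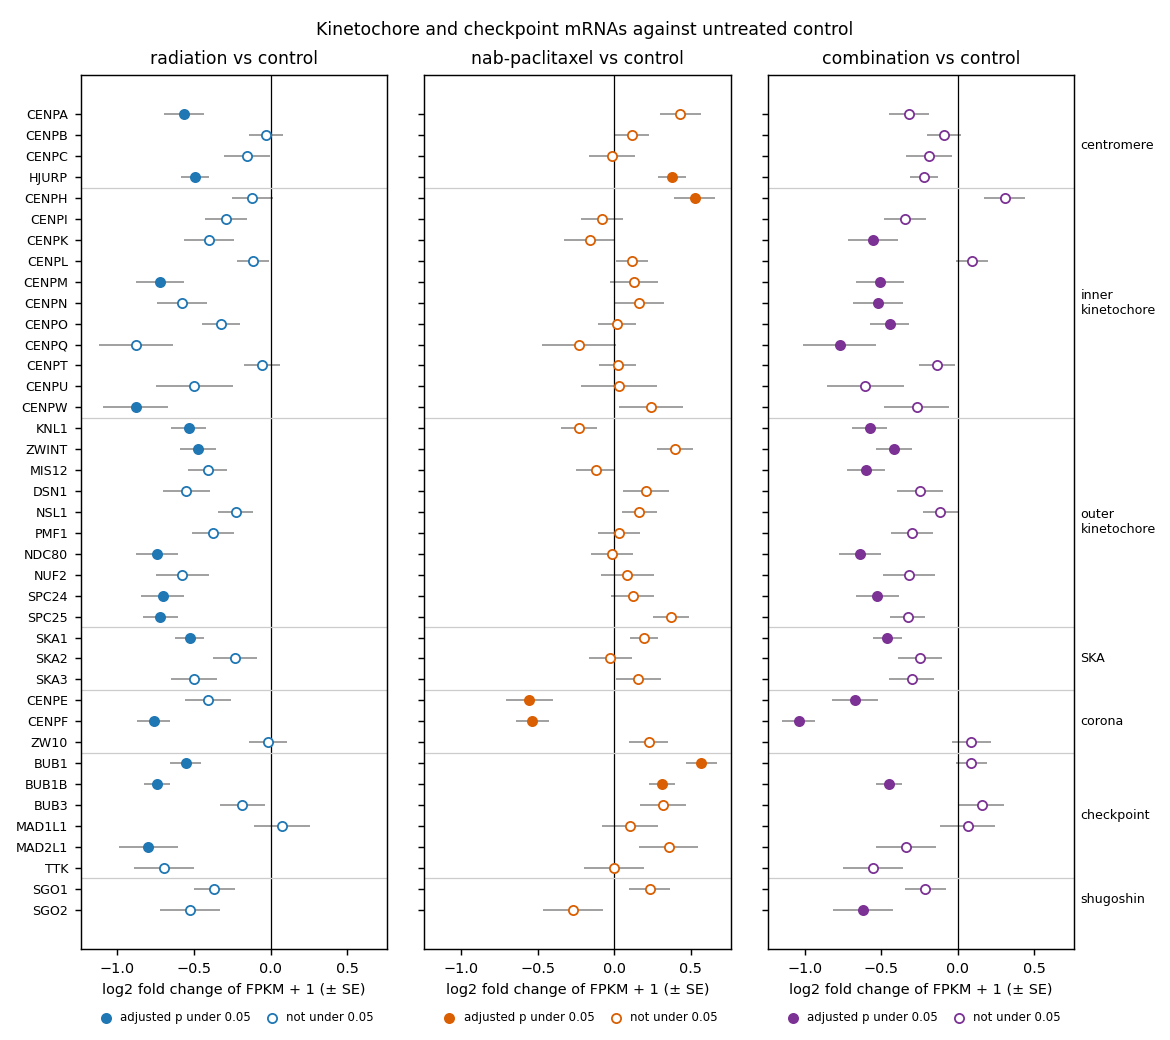
Log2 fold change (± SE, 3 libraries a group) of the 39 tested members against untreated control, grouped by layer (y axis); filled points have an adjusted p under 0.05. With radiation 14 points are filled, all below 0, with nab-paclitaxel 4 above and 2 below 0, and with the combination 15, all below 0.

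Other cell cycle genes, of G1/S as well as of G2 and mitosis, were lower in the same comparison. Of 29 other tested kinetochore and checkpoint genes 9 fell and 0 rose (median -0.37), among them CDC20, the activator that the checkpoint holds back (-0.73 ± 0.08), the passenger subunit BIRC5 (-0.93 ± 0.09) and the kinesin KIF2C (-0.85 ± 0.09). Of 15 G2 and mitosis markers 10 fell (median -0.64), such as UBE2C (-1.09 ± 0.11) and CCNB2 (-0.89 ± 0.10). Of 20 G1/S and replication markers 15 fell (median -0.62), such as MCM3 (-0.79 ± 0.08) and CDT1 (-1.03 ± 0.11). Among 15 regulators of cell cycle promoters, CDKN1A, which encodes the inhibitor p21, rose (0.77 ± 0.08), and FOXM1 (-0.87 ± 0.13) and MYBL2 (-0.89 ± 0.16) fell. In bulk RNA, a changed share of cells in each cell cycle phase and less of these mRNAs per cell cannot be told apart.

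The second comparison set drug-treated cells against untreated ones. Among all tested genes 5.41% rose and 3.41% fell. Of the 39 members 4 rose (BUB1, CENPH, HJURP and BUB1B) and 2 fell (CENPE and CENPF), so calls were few and went both ways. The mean ratio to control ran from 0.583 to 1.60 with a median of 1.10. The median log2 fold change was 0.11, beside 0.04 over all tested genes, and 27 values were above and 12 below 0. Both falls were in the corona. The rises were in the checkpoint (2), the inner kinetochore (1) and the centromere group (1), too few to compare layers. The outer kinetochore (0 of 10), SKA complex (0 of 3) and shugoshins (0 of 2) had no call.

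BUB1 had 10.9, 9.53 and 10.5 FPKM in the 3 drug-treated libraries, all above its 3 control libraries (0.57 ± 0.10, adjusted p = 0.00988). BUB1B had 7.62, 7.30 and 7.99, again all above control, with a smaller change (0.31 ± 0.08, adjusted p = 0.0425). MAD2L1 had 13.6, 7.76 and 8.31, where nab-paclitaxel 1 was far above the other two (0.36 ± 0.19, adjusted p = 0.267). BUB3 showed the same pattern of libraries, with 33, 22.8 and 22.9 (0.32 ± 0.15, adjusted p = 0.194). TTK had 9.57, 5.39 and 6.19, which reached past both ends of the control range (0.00 ± 0.20), and MAD1L1 averaged 2.82 ± 0.645 FPKM (0.10 ± 0.18).

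HJURP had 7.06, 8.38 and 7.52 FPKM with the drug, above every control library (0.38 ± 0.09, adjusted p = 0.0294). CENPA had 6.18, 4.58 and 5.49, also without overlap, and did not pass (0.43 ± 0.13, adjusted p = 0.0644). CENPB (33.2, 34.2 and 26.2) and CENPC (2.82, 1.82 and 2.31) overlapped control. CENPH, of the network's 4-protein core with CENPI, CENPK and CENPM, had 5.86, 4.0 and 4.36 and rose (0.53 ± 0.14, adjusted p = 0.0367). Its 3 partners had other values: CENPM 3.61, 3.05 and 2.75 FPKM by library (0.13), CENPI -0.08 and CENPK -0.16. CENPW had 14.9, 6.82 and 8.53, of which only nab-paclitaxel 1 was well above control, and CENPN had 7.89, 4.96 and 6.15. The other 6 inner members (CENPL, CENPO, CENPQ, CENPT, CENPU and, below the filter, CENPP) had no call, those tested running from -0.23 to 0.11.

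Among the outer members ZWINT had 9.0, 9.85 and 9.18 and SPC25 5.38, 4.75 and 4.71 FPKM. Both lay above all control libraries and neither passed (0.40 ± 0.12, adjusted p = 0.0601, and 0.37 ± 0.11, adjusted p = 0.0659). NDC80 had 6.21, 4.51 and 4.58 and SPC24 2.98, 3.72 and 3.11, which overlapped control, as did DSN1, NSL1, NUF2, PMF1, MIS12 and KNL1 (0.21, 0.16, 0.09, 0.03, -0.12 and -0.23). SKA1 had 7.02, 6.0 and 6.55, SKA2 19.9, 13.7 and 13.9 and SKA3 7.21, 5.17 and 4.94, with log2 values of 0.19, -0.03 and 0.16. SGO1 had 2.37, 2.0 and 1.92 and SGO2 4.56, 2.46 and 2.81 (0.23 and -0.27). None of these SKA and shugoshin changes passed.

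In the corona 2 of 3 members fell. CENPF had 7.38, 5.35 and 7.53 FPKM with the drug, all below the lowest control library (-0.54 ± 0.11, adjusted p = 0.0151). CENPE had 2.36, 1.35 and 1.80, also below control (-0.55 ± 0.15, adjusted p = 0.0443). ZW10 had 13.5, 12.1 and 10.4, which overlapped control (0.23 ± 0.13). CENPF, KNL1 and CENPE are the longest tested members, with 11690, 10250 and 9444 bases, and KNL1 did not pass (-0.23 ± 0.12). Over all tested genes the median change with the drug also moved with gene length: it was 0.18 for genes of 1952 to 2818 bases and -0.13 for those of 9877 to 42341 bases, and -0.18 for those of 57 to 750 bases. Across genes, Spearman's rho of length and the change was -0.375 for the 39 members and -0.192 for all 13609, a description only, since genes are not independent replicates. The part of length in the lower CENPF and CENPE was not tested.

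**Figure D3:**
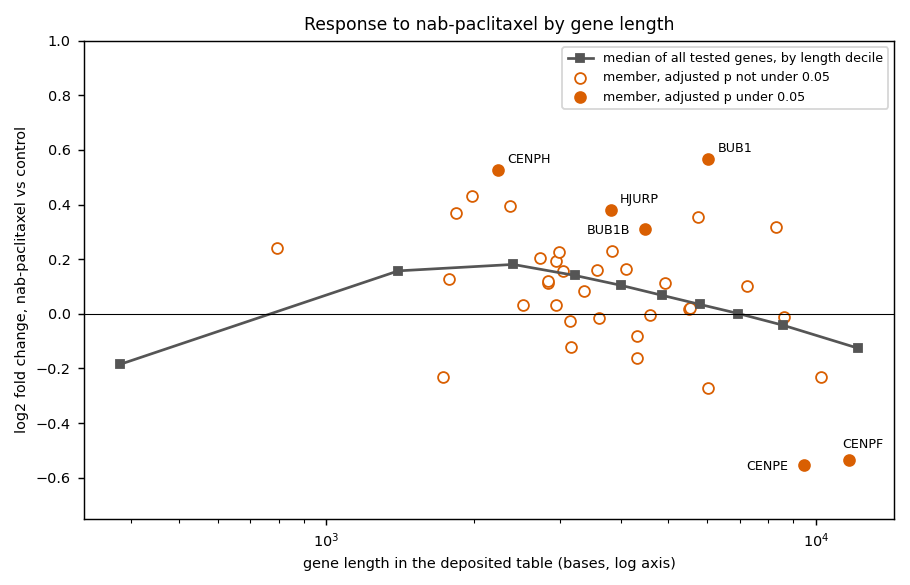
Log2 fold change with nab-paclitaxel against gene length (bases, log axis) for the 39 tested members (circles, filled where the adjusted p is under 0.05), with the median of all tested genes in 10 length classes (squares). CENPF and CENPE lie at -0.54 and -0.55 where the all-gene medians are between -0.04 and -0.13.

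The groups did not overlap in 9 of 39 members, against 26.1% of all tested genes. The 4 rises and 2 falls became 3 and 1 with quantile normalisation and 2 and 2 with TPM scaling or voom, and BUB1 and CENPF were called in every alternative. The call of HJURP was lost in 9 of 20 alternatives and that of BUB1B in 14 of 20. CENPH lost its call in 13 of the 19 that tested it, and CENPE in 14 of 19. The count was 3, 2, 2, 3, 3, 2 and 3 without control 2, control 3, radiation 1, radiation 2, nab-paclitaxel 2, nab-paclitaxel 3 and combination 3. Without nab-paclitaxel 1 it was 4 and the members' median 0.05. Without the 3 deviating libraries it was 7, with a median of 0.03: ZW10 (0.29, adjusted p = 0.0340) and BUB3 (0.28, adjusted p = 0.0212) rose and CENPH did not pass (0.40, adjusted p = 0.0647). That alternative called 1196 of all 13609 tested genes higher and 640 lower. Over all tested genes 736 rose and 464 fell, which became 381 and 408 with quantile normalisation and 524 and 580 with voom.

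Other mitotic genes were called higher with the drug. Of 29 other tested kinetochore and checkpoint genes 9 rose and 0 fell (median 0.23), among them CDC20 (0.76 ± 0.08), and of 15 G2 and mitosis markers 8 rose and 0 fell (median 0.42), among them TPX2 (0.38 ± 0.07) and CCNB2 (0.49 ± 0.10). Of 20 G1/S markers 5 rose (median 0.21). CDKN1A rose (0.74 ± 0.08), while FOXM1 (-0.13 ± 0.13) and MYBL2 (0.06 ± 0.16) did not pass.

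**Figure D4:**
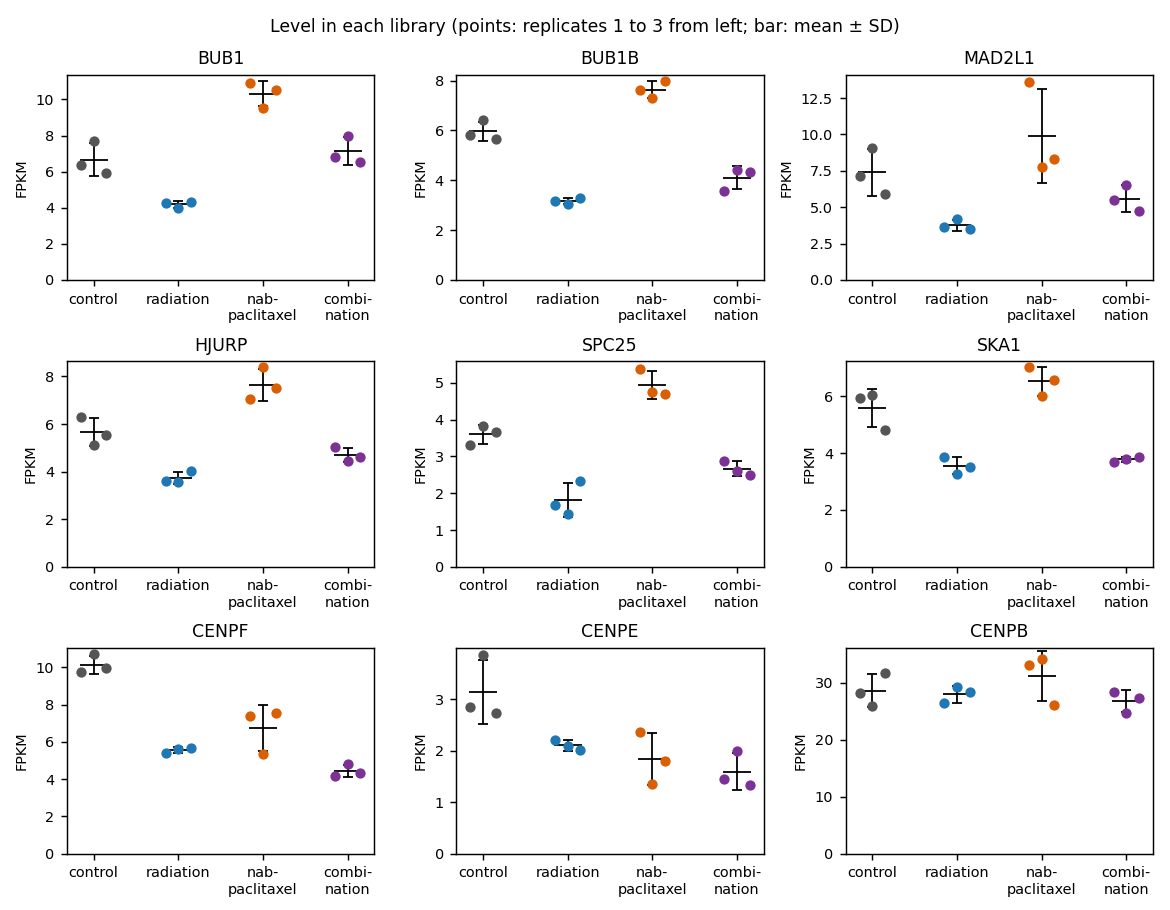
FPKM of 9 members in each library (points, replicates 1 to 3 from left) with mean ± SD (n = 3) for control, radiation, nab-paclitaxel and combination. BUB1 runs from 3.99 FPKM in a radiation library to 10.9 in a drug library, CENPF is lower than control in all 3 treatments, and CENPB overlaps in all groups.

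The next comparison set cells given both treatments against untreated ones. The members were again lower: 15 of 39 fell and 0 rose, against 10.6% of all tested genes that fell and 12.2% that rose. Falls were found in the inner (5 of 11) and outer kinetochore (5 of 10), the corona (2 of 3), the SKA complex (1 of 3), the checkpoint (1 of 6) and the shugoshins (1 of 2), and in 0 of 4 centromere genes. Mean levels were 0.436 to 1.31 times those of control with a median of 0.744. The median log2 fold change was -0.33, beside 0.00 over all tested genes, with 33 of 39 values below 0.

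CENPF had 4.16, 4.79 and 4.33 FPKM in the combination, below every control library, with the largest change of any member in any comparison (-1.04 ± 0.11, adjusted p = 1.45e-04). CENPE had 1.46, 2.0 and 1.33 (-0.67 ± 0.15, adjusted p = 0.00862), and ZW10 had 10.0, 11.8 and 10.6, within the control range (0.09 ± 0.13). In the outer kinetochore NDC80 had 3.17, 3.20 and 2.44 (-0.64 ± 0.14, adjusted p = 0.00669). SPC24 had 2.19, 1.20 and 1.87 (-0.53 ± 0.14, adjusted p = 0.0208) and ZWINT 5.07, 4.08 and 5.60 (-0.42 ± 0.12, adjusted p = 0.0263). All libraries of these 3 lay below control. KNL1 fell to 1.28 ± 0.169 FPKM (-0.58 ± 0.12, adjusted p = 0.00499) and MIS12, the namesake of the complex that joins both layers, fell from 14.6 ± 2.72 to 9.24 ± 0.777 FPKM (-0.60 ± 0.13, adjusted p = 0.00652). SPC25 had 2.89, 2.60 and 2.49, without overlap and short of the threshold (-0.33 ± 0.11, adjusted p = 0.0603). DSN1, NSL1, PMF1 and NUF2 did not pass (-0.25, -0.12, -0.30 and -0.32).

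In the inner kinetochore CENPM had 1.78, 1.81 and 1.39 FPKM (-0.51 ± 0.16, adjusted p = 0.0370) and CENPN 3.33, 3.90 and 3.30 (-0.52 ± 0.16, adjusted p = 0.0395). CENPK fell from 2.21 ± 0.712 to 1.15 ± 0.225 (-0.56 ± 0.16), CENPO from 2.15 ± 0.125 to 1.31 ± 0.155 (-0.45 ± 0.13) and CENPQ from 6.22 ± 1.92 to 3.18 ± 0.835 FPKM (-0.77 ± 0.24). CENPO shares 26.97% of its exonic bases with ADCY3 on the other strand, and CENPN 12.81% with CMC2, so part of their fragments may belong to the partner. CENPW had 6.26, 5.38 and 7.85, overlapping control (-0.27 ± 0.21, adjusted p = 0.391). CENPH had 3.70, 4.49 and 3.49, above all control libraries (0.30 ± 0.14, adjusted p = 0.129). CENPI, CENPL, CENPT and CENPU had no call (-0.34, 0.09, -0.14 and -0.60).

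In the centromere group CENPA had 2.71, 3.33 and 2.40, HJURP 5.03, 4.45 and 4.62, CENPB 28.4, 24.8 and 27.3 and CENPC 1.62, 2.43 and 1.76 FPKM. Only the libraries of HJURP lay wholly below control, and none of the 4 passed (-0.32, -0.22, -0.09 and -0.19). SKA1 had 3.68, 3.80 and 3.85, below control and within a narrow range (-0.46 ± 0.09, adjusted p = 0.00524). SKA2 had 12.3, 14.2 and 13.2 and SKA3 3.54, 4.52 and 3.61 (-0.25 and -0.30), which overlapped control.

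Of the 6 checkpoint genes 1 fell in the combination and 5 did not pass. BUB1B had 3.59, 4.42 and 4.31 FPKM and fell (-0.45 ± 0.08, adjusted p = 0.00344). BUB1 had 6.82, 8.0 and 6.56, inside and just above the control range (0.09 ± 0.10, adjusted p = 0.572). MAD2L1 had 5.47, 6.55 and 4.74 and TTK 3.84, 5.48 and 3.92, which did not pass (-0.34 ± 0.19 and -0.55 ± 0.20, adjusted p = 0.0635). BUB3 had 21.5, 24.6 and 22.9 (0.16 ± 0.15), and MAD1L1 averaged 2.72 ± 0.666 (0.06 ± 0.18). SGO2 had 2.26, 2.42 and 2.16 and fell (-0.62 ± 0.20, adjusted p = 0.0401), while SGO1 had 1.02, 1.63 and 1.20 and did not pass (-0.21 ± 0.13).

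The groups did not overlap in 21 of 39 members, against 37.3% of all tested genes. At an unadjusted p under 0.05, 21 members were lower and 1 (CENPH) higher, and voom called 16 lower and 0 higher. With the replicate number as a block 12 members fell, and CENPN, CENPQ and SGO2 no longer passed (adjusted p = 0.0608, 0.0553 and 0.0657). The count was 9 without control 1, 8 without combination 1 and 18 without the 3 deviating libraries (17 lower and BUB3 higher, 0.24, adjusted p = 0.0149). Leaving out those 3 libraries, 2334 of all 13609 tested genes fell and 2715 rose. MIS12, CENPF and BUB1B were called in all 20 alternatives, and KNL1, NDC80, SKA1 and CENPE in the 19 that tested them. Of 29 other tested kinetochore and checkpoint genes 6 fell and 2 rose (median -0.18). Of the G2 and mitosis markers 4 of 15 fell and 0 rose (median -0.12), and of the G1/S markers 15 of 20 fell and 2 rose (median -0.61). CDKN1A rose from 117 to 338 FPKM (1.53 ± 0.08).

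Setting the combination against radiation shows what the drug added in irradiated cells. BUB1 was the one member to pass the threshold: it rose from 4.20 ± 0.188 FPKM with radiation to 7.13 ± 0.769 with both (0.64 ± 0.10, adjusted p = 0.00582). All 3 combination libraries (6.82, 8.0 and 6.56) lay above the 3 radiation libraries. That is 1 of 39 higher and 0 lower, against 4.81% of all tested genes that rose and 2.95% that fell. Mean ratios ran from 0.758 (CENPE) to 1.70 (BUB1) with a median of 1.10, and the median log2 fold change was 0.11, beside 0.03 over all tested genes. CENPW (0.61 ± 0.21, adjusted p = 0.0989), MAD2L1 (0.46 ± 0.19), CENPH (0.42 ± 0.14, adjusted p = 0.0793), SPC25 (0.39 ± 0.11, adjusted p = 0.0595), BUB3 (0.34 ± 0.15), BUB1B (0.29 ± 0.08, adjusted p = 0.0570) and HJURP (0.27 ± 0.09, adjusted p = 0.0920) had an unadjusted p under 0.05 on the higher side and did not pass. CENPF was the one with such a p on the lower side (-0.28 ± 0.11, adjusted p = 0.137).

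In the outer kinetochore and SKA complex, values lay between -0.19 (MIS12) and 0.39 (SPC25), with NDC80 at 0.10, ZWINT at 0.06 and SKA1 at 0.07. The groups did not overlap in 14 of 39 members, against 40.5% of all tested genes. The count was 2 without control 2, radiation 3 or combination 1, and 5 without nab-paclitaxel 1, a library of neither group compared but of the shared fit. Without the 3 deviating libraries 7 members rose and 2 fell, while 2561 of all 13609 tested genes rose and 1567 fell. The members' rises included CENPW (0.72, adjusted p = 0.00412), MAD2L1 (0.36, adjusted p = 0.0293) and BUB3 (0.29, adjusted p = 0.00680). The members' falls were CENPE (-0.37, adjusted p = 0.0224) and MIS12 (-0.22, adjusted p = 0.0436). BUB1 was called in every alternative, and voom called 1 higher and 0 lower. Of the other kinetochore and checkpoint genes 7 of 29 rose (median 0.20), CDC20 by 0.85 ± 0.08, and of the G2 and mitosis markers 7 of 15 (median 0.46). Over all tested genes 654 rose and 401 fell, which became 429 and 598 with voom.

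Setting the combination against nab-paclitaxel shows what radiation added in drug-treated cells. The 39 values were all below 0, and 12 members fell and 0 rose, against 2.7% of all tested genes that fell and 1.21% that rose. Ratios of mean FPKM ran from 0.520 (CENPA) to 0.978 (CENPL) with a median of 0.674, and the median log2 fold change was -0.46, beside -0.02 over all tested genes. Falls were seen in the outer kinetochore (4 of 10), the centromere group (2 of 4), the inner kinetochore (2 of 11), the checkpoint (2 of 6), the SKA complex (1 of 3) and the corona (1 of 3), with 0 of 2 shugoshins.

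ZWINT fell from 9.34 ± 0.445 to 4.91 ± 0.771 FPKM, the largest log2 change of this comparison (-0.81 ± 0.12, adjusted p = 0.00425). BUB1B fell from 7.64 ± 0.348 to 4.11 ± 0.451 (-0.76 ± 0.08, adjusted p = 0.00119), and CENPA from 5.42 ± 0.804 to 2.82 ± 0.473 (-0.75 ± 0.13, adjusted p = 0.0110). HJURP (-0.60 ± 0.09, adjusted p = 0.00514), SPC25 (-0.70 ± 0.11, adjusted p = 0.00779) and SKA1 (-0.65 ± 0.09, adjusted p = 0.00376) fell with no overlap of libraries. BUB1, which rose with the drug in both non-irradiated and irradiated cells, was lower with both treatments than with the drug alone (-0.48 ± 0.10, adjusted p = 0.0251). CENPF fell too (-0.50 ± 0.11, adjusted p = 0.0267), while CENPE did not pass (-0.12 ± 0.15, adjusted p = 0.763). The remaining falls were CENPN (-0.68), SPC24 (-0.65), CENPM (-0.64) and NDC80 (-0.63). MAD2L1 (-0.70 ± 0.19, adjusted p = 0.0756) did not pass.

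The groups did not overlap in 24 of 39 members, against 20.9% of all tested genes. At an unadjusted p under 0.05, 27 members were lower and 0 higher, and voom called 13 lower and 0 higher. The count was 7 without nab-paclitaxel 3 or combination 1, 5 without combination 3, and 17 without the 3 deviating libraries, where among others MIS12 (-0.40, adjusted p = 0.0161) and TTK (-0.47, adjusted p = 0.0103) joined and CENPM did not pass (-0.60, adjusted p = 0.106). Leaving out those 3 libraries, 791 of all 13609 tested genes fell and 510 rose. HJURP, ZWINT and BUB1B were called in all 20 alternatives, and SPC25 and SKA1 in the 19 that tested them. Of 29 other tested kinetochore and checkpoint genes 12 fell and 0 rose (median -0.43). Of the G1/S markers 17 of 20 fell (median -0.75) and of the G2 and mitosis markers 10 of 15 (median -0.67). Over all tested genes 165 rose and 368 fell, which became 196 and 273 with quantile normalisation and 241 and 327 with voom.

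The interaction asks whether both treatments together departed from the sum of their log2 effects. It gave 0 calls in either direction among the 39 members (0% higher and 0% lower of all tested genes), by limma and by voom. At an unadjusted p under 0.05 it gave 0 of 39 members and 443 of 13609 genes (3.26%). Estimates ran from -0.34 for ZWINT (the smallest unadjusted p, 0.0679) to 0.37 for CENPW, with a median of 0.02. For BUB1 the interaction was 0.07 ± 0.14, for BUB1B -0.02 ± 0.12 and for CENPF 0.26 ± 0.15. The 95% intervals reached 0.260 to 0.775 to either side of the estimate, and those of CENPQ and CENPW included a log2 value of 1. A departure of that size was not excluded in these 2 genes, and the intervals of the other tested members did not reach 1 in either direction. Smaller departures were not excluded by this. A 2-fold departure in FPKM is among them, since it is less than 1 on log2(FPKM + 1), most so for low genes. The interval of TTK ran from -0.46 to 0.76 and that of MAD2L1 from -0.50 to 0.70, beside radiation changes of -0.70 and -0.80.

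**Figure D5:**
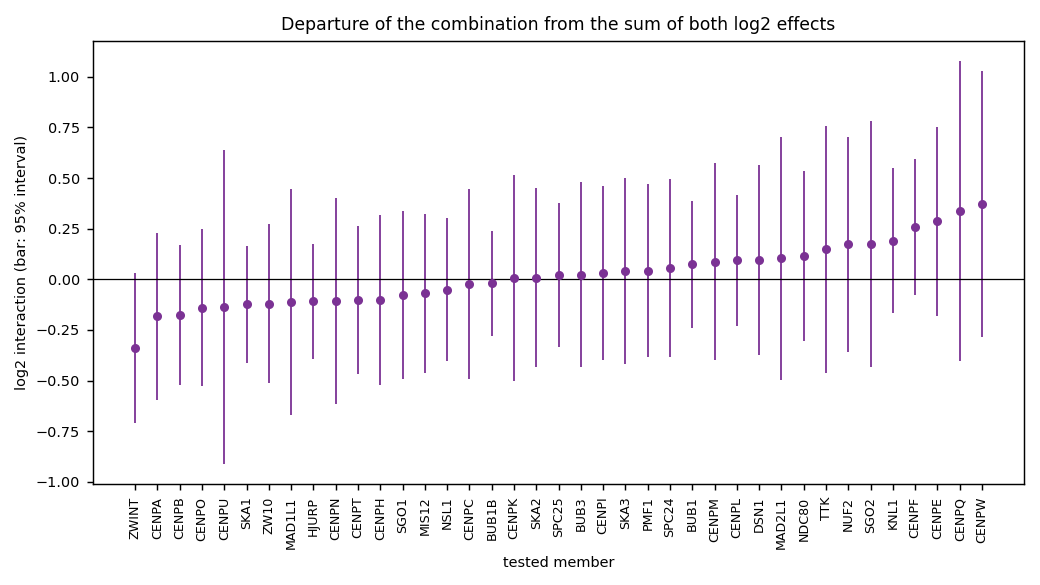
Interaction of radiation and nab-paclitaxel on the log2 scale (points) with 95% intervals (bars) for the 39 tested members, ordered by estimate. Every interval includes 0; estimates run from -0.34 (ZWINT) to 0.37 (CENPW).

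Over these comparisons between groups, 22 of the 39 tested members passed at least once and 17 never did: CENPB, CENPC, CENPI, CENPL, CENPT, CENPU, DSN1, NSL1, PMF1, NUF2, SKA2, SKA3, ZW10, BUB3, MAD1L1, TTK and SGO1. They include the 4 highest uncalled members, CENPB, BUB3, SKA2 and ZW10. A p that misses the threshold does not show that these mRNAs were unaffected. Some members overlap other genes, and the strand used in counting is not stated: on the other strand CENPO shares bases with ADCY3, SGO1 17.74% with SGO1-AS1, CENPN with CMC2, CENPU 11.72% with PRIMPOL and MIS12 9.53% with DERL2, and on the same strand CENPA shares 6.96% with SLC35F6 (26.2 FPKM). PMF1 and BUB1B share 23.29% and 10.21% of their bases with readthrough genes that had 0.0055 and 0.0161 FPKM. Annotated pseudogene copies of members had at most 0.0765 FPKM.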

How the data were processed

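Messenger RNA of TFK1 cells was sequenced in 12 libraries. The authors deposited 1 table of FPKM values with gene lengths, per the file headers. Per the submitters' processing notes the build is hg38. The aligner, counter, strand setting and the scaling of each library behind the FPKM were not given in the sources used here. FPKM times length gave whole fragments for 100% of values (tolerance 0.05). Groups came from the labels. Genes that averaged 1 FPKM or more were fitted on log2(FPKM + 1) with limma 3.58.1 in R 4.3.3 (4 groups in 1 fit, mean-variance trend, 8 residual and 3.39 prior degrees of freedom, two-sided, Benjamini-Hochberg adjustment over 13609 genes per contrast). Coordinates are from GENCODE release 29 and promoters from RefSeq (GRCh38.p14). In simulated data for radiation against control over 13609 genes, log2 changes of 1 and 2 were called in 92% and 98% of 100 genes each. There, 10 unchanged genes were called. The spread between simulated replicates was a fixed setting and was not estimated from these libraries. Smaller changes, such as the members' median of -0.50 with radiation, were not simulated, so these shares do not give the power for them.

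Same-numbered control and combination libraries deviated together (r = 0.233, 0.543 and 0.172 across genes), though no label links a number to a batch or day. Library values are printed for up to 4 members per layer with the smallest p over the 4 groups, for members called against the majority, and for uncalled members with a mean of at least 10 FPKM. The others are given by means or fold changes. The members, gene lists and layers were chosen with earlier results of these data known. The alternatives tried were a smaller pseudocount (0.1), all genes unfiltered, a stricter filter (5 FPKM), quantile normalisation, TPM scaling, voom, a replicate block and leaving out libraries.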

Additional observations from a re-analysis of the deposited data

How the results depend on the processing

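No member changed direction after being called under any of the 20 alternatives. Among the calls of the 5 comparisons between groups, those kept in each alternative that tested the gene (19 or 20, since the 5 FPKM filter removes low members) were 5 of 14 with radiation, 2 of 6 with nab-paclitaxel, 7 of 15 with the combination, 1 of 1 for the combination against radiation and 5 of 12 for the combination against nab-paclitaxel. In that order of comparisons, no filter gave 8, 2 and 7 members against control and 6 against nab-paclitaxel, with 579 genes for the drug, 577 and 276 for the combination against radiation and against nab-paclitaxel, and 5 in the interaction. A mean of at least 5 FPKM gave 9, 4 and 6 members (radiation, combination, combination against nab-paclitaxel) and 2018 genes for the combination, from fewer genes tested. For the combination against radiation, a pseudocount of 0.1 gave 2 members and quantile normalisation 3, and for the drug quantile normalisation gave 789 genes. The replicate block gave 2 members for the drug and 531, 701, 606 and 306 genes (radiation, drug, combination against radiation, combination against nab-paclitaxel). Beside the calls named above for the combination, it took away CENPW and ZWINT with radiation, HJURP, CENPH, CENPE and BUB1B with the drug, and CENPN, SPC24, CENPF and BUB1 for the combination against nab-paclitaxel. In the 4 comparisons other than the combination against control, same-numbered libraries did not deviate together in every pair (r from -0.492 to 0.172). Leaving out the 3 deviating libraries gave 22 members with radiation and 9 for the combination against radiation, and 2947, 1836, 5049, 4128 and 1301 genes in the 5 comparisons. Leaving out single libraries gave 6 to 21, 2 to 7, 8 to 17, 1 to 5 and 5 to 13 members, and 320 to 1305, 524 to 1181, 1964 to 3926, 218 to 1879 and 177 to 734 genes. The interaction gave 0 members throughout. Depth limits the low members, with 36 fragments in the lowest library of CENPM and 47 in those of CENPW and SPC25.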

Other observations

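The 3 irradiated libraries were closer to each other than those of the other groups. The median SD over the 39 tested members was 0.0764 on the log2 scale with radiation, 0.211 in control, 0.219 with nab-paclitaxel and 0.152 with the combination, and over all tested genes these medians were 0.0731, 0.175, 0.167 and 0.130. The SD was smallest with radiation in 30 of 39 members and in 58.6% of all tested genes.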
